A study of Mus musculus with 6 samples.

Results

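The Rap GTPases are small switch proteins of the Ras family, and this account follows 5 of them in mouse microglia together with 3 of their exchange factors and 2 of their activating proteins. The 10 genes were taken by symbol (Rap1a, Rap1b, Rap2a, Rap2b, Rap2c, Rapgef1, Rapgef2, Rapgef6, Rap1gap and Sipa1) from the 23930 genes of the authors' deposited table, and all 10 were listed there. The members were chosen by their gene family with their deposited Meth over Saline folds and p-values already known, so those values describe them and test nothing about them as a set. Microglia, the resident macrophages of the brain, were sorted by flow cytometry from perfused brains of adult wild-type C57BL/6 mice as CD11b-positive, CD45-low and CD206-negative cells. Meth mice (n = 3) were given 4 injections of 5 mg/kg methamphetamine, a psychostimulant that releases monoamines, at intervals of 2 h, and Saline mice (n = 3) were given 4 injections of saline at the same intervals. RNA was read with a targeted amplicon panel, in which a primer pair amplifies a short stretch of each gene. The time between the last injection and the sort is not stated.

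Rap proteins are on when bound to GTP and off when bound to GDP. Exchange factors load them with GTP, and activating proteins speed the hydrolysis that turns them off. In leukocytes, GTP-bound Rap1 recruits the adaptor RIAM and talin to integrin tails and so raises integrin adhesion, while Rap2 proteins bind a group of Ste20-like kinases that includes TNIK, MINK1 and MAP4K4. Macrophages and microglia use this pathway in adhesion, spreading and phagocytosis.

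The table held 1 average per group on a log2 scale and no value per mouse, so no spread between mice, no depth and no overlap of groups can be given for any gene. The averages, folds and p-values printed for a gene come from the authors, unless said to be computed here. A nominal p is the unadjusted one. Of the genes behind the gate, Itgam (CD11b) had a deposited average of 11.66 in Meth and 11.49 in Saline. Ptprc (CD45) was at 7.77 in Meth and 7.78 in Saline. Mrc1 (CD206), whose protein the gate excluded, was at 4.80 in Meth and 4.44 in Saline. All 10 microglia markers looked at, P2ry12 and Csf1r among them, lay above 1. Of 7 platelet markers, 4 lay under 1 in both groups, and together they held 0.00108% of the summed linear values in Meth and 0.00192% in Saline. Endothelial markers held 0.00795% in Meth and 0.00969% in Saline, and astrocyte markers 0.00637% in Meth and 0.0152% in Saline. The share of neuron markers was 0.00103% in Meth and 0.000633% in Saline, that of neutrophil and monocyte markers 0.000259% in Meth and 0.000456% in Saline, and that of lymphocyte markers 1.52e-05% in Meth and 1.27e-05% in Saline. Listed at 0 or below in both groups were 1 of 7 platelet markers (Gp6), 1 of 7 endothelial ones (Slco1a4), 1 of 7 neutrophil and monocyte ones (Mmp8) and 4 of 7 lymphocyte ones, and 0 of the 8 neuron and 0 of the 8 astrocyte markers. Other platelet and endothelial markers were read. Gp9 was at 3.33 in Meth and 3.95 in Saline, and Pecam1 at 6.25 in Meth and 6.44 in Saline. Of the platelet and endothelial markers, only Gp1ba (0.43 in Meth and 2.14 in Saline) and Cdh5 (1.31 in Meth and 3.11 in Saline) had a nominal p under 0.05. It was 0.0421 and 0.0231 by the authors' deposited table. Others went the other way, such as Itga2b (0.37 in Meth and 0.06 in Saline) and Flt1 (0.86 in Meth and 0.64 in Saline). The median difference (Meth minus Saline) was -0.13 for platelet and -0.14 for endothelial markers. It was 0.195 for neuron markers, of which Gad1 and Stmn2 were higher in Meth (nominal p of 0.0132 and 0.0014, by the authors' deposited table). Snap25 (0.71 in Meth and 1.70 in Saline) and Syt1 (0.80 in Meth and 1.01 in Saline) were lower, so the neuron markers did not all go one way. The part of these markers in the differences below was not tested.

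The Rap1 pair and the Rap2 trio are close paralogs, which matters for a method that reads a short stretch of each gene. The coding sequences of Rap1a and Rap1b, both of 555 bases with the stop codon, were the same at 453 positions (81.6%), and the longest stretch without a difference was 20 bases. Their first 120 coding bases, from GENCODE release M21 transcripts (GRCm38; Rap1a on the minus strand of chromosome 3, Rap1b on the minus strand of chromosome 10), are shown with the 17 positions at which the pair differ in capitals.
Rap1a: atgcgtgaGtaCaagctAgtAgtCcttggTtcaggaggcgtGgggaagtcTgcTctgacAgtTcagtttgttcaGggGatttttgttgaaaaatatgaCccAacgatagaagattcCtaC
Rap1b: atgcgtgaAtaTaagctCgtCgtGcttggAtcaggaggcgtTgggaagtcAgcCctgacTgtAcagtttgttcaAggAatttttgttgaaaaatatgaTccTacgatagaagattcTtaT

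The differences are spread along the stretch, so a read of more than 20 coding bases holds at least 1 of them. A processed pseudogene, Gm9392 on chromosome 7, has the same bases as the Rap1a coding sequence at all but 8 of 554 aligned positions (98.6%). A second one, Rap1a-ps2 on chromosome 2, is 91.6% identical over 559 aligned bases. Neither was in the deposited table. Where the Rap1a primer pair sits is not stated, so it could not be examined whether reads of the pseudogene can be counted as Rap1a, and the Rap1a value carries that uncertainty. No copy of Rap1b at 85% identity over 200 bases or more was found among the annotated transcripts.

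The same stretch of the Rap2 genes (Rap2a on the plus strand of chromosome 14, Rap2b on the plus strand of chromosome 3, Rap2c on the minus strand of chromosome X) is shown with capitals at the 33 positions where the trio are not all alike.
Rap2a: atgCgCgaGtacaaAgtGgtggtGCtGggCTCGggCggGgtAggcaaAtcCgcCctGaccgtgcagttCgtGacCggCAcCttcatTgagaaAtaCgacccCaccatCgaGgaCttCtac
Rap2b: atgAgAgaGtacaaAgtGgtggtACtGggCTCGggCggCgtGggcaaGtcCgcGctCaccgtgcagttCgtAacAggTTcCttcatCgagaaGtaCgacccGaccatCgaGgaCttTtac
Rap2c: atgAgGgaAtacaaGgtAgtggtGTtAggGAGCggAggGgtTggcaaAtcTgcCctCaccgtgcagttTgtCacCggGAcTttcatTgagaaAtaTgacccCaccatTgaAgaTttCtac

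Over the whole coding sequence of 552 bases, Rap2a was 82.6% identical to Rap2b and 75.9% identical to Rap2c, and Rap2b was 71.2% identical to Rap2c. Rap2a and Rap2b share a run of 44 bases without a difference. Reads that fall inside it could not tell the 2 genes apart.

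Set side by side, Meth and Saline microglia show how Rap transcripts stand after methamphetamine. All 5 GTPases were listed lower in Meth, by 0.20 to 1.57 on the log2 scale, with a median difference of -0.94 (Meth minus Saline), though Rap2c was higher by 0.06 once set against genes of like GC content. Of the 3 exchange factors, 2 were listed higher and 1 lower. Sipa1, which turns Rap off, was listed higher by 0.94, and Rap1gap stood near 0 in both groups. The median difference of the 10 genes was -0.19, beside 0.02 over the 10375 genes that reached 1 in either group, a level passed by 9 of the 10. Of the 10, 1 gene (Rap1a) had a p adjusted for the false discovery rate (FDR) under 0.05 in the authors' deposited table, as did 2.24% of all genes in either direction and 0.0878% of all genes lower in Meth. Among the 10375 genes that reached 1, 21 lower and 16 higher genes had such a p, beside 21 lower and 515 higher over all genes. Because the members were put together with this contrast known, nothing is read from the count of members.

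**Figure D1:**
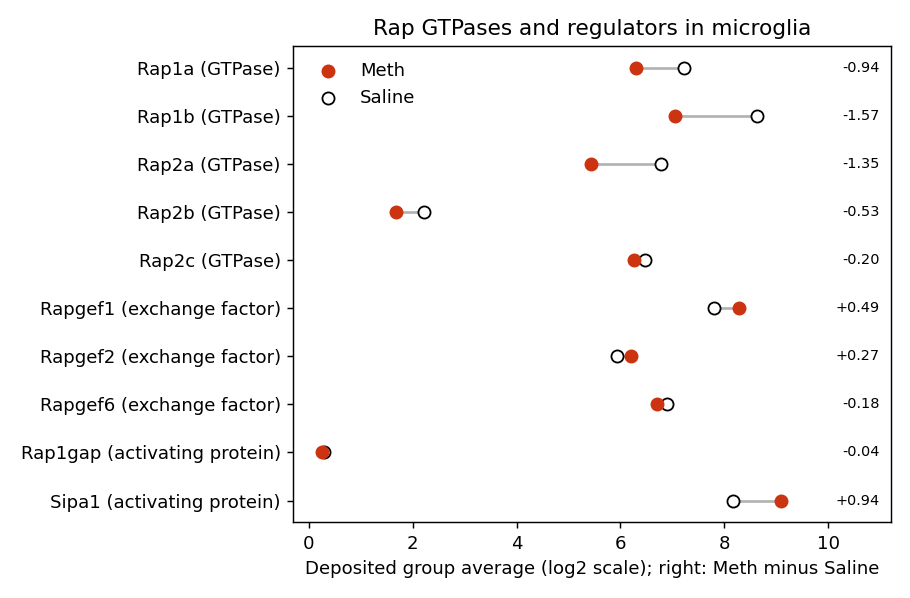
Deposited group averages (log2 scale, horizontal axis) of the 10 genes, with Meth as filled points, Saline as open points and the Meth minus Saline difference at the right. No error can be drawn, since the table has 1 average per group of 3 mice. The 5 GTPases lie lower in Meth, Rap2c not so against genes of like GC content (0.06), and Sipa1, Rapgef1 and Rapgef2 lie higher.

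Rap1a, one of the Rap1 pair, had a deposited average of 6.29 in Meth and 7.23 in Saline. By the authors' deposited table Rap1a was 1.92-fold lower (nominal p = 0.0002, FDR = 0.0113). When only the p-values of those 10375 genes were adjusted, by the Benjamini-Hochberg method, Rap1a had an adjusted p of 0.189, so its call depended on the genes adjusted with it. Rap1b, the other Rap1 gene and the chief Rap1 of platelets, had an average of 7.05 in Meth and 8.62 in Saline. By the authors' deposited table it was 2.97-fold lower (nominal p = 0.0210, FDR = 0.3659) and did not pass. Rap1b thus had the larger difference of the pair and Rap1a the smaller p. Of the 10375 genes, 3.88% had a lower difference than Rap1b, and 11.97% had a lower difference than Rap1a.

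On the linear scale, read as RPM (reads scaled to a common library total), Rap1a stood at 77.2 in Meth and 149 in Saline, and Rap1b at 132 in Meth and 392 in Saline. Their sum was 209 in Meth and 542 in Saline, a ratio of 0.386. Each gene enters this sum through its own primer pair, so the sum weights them by how well those pairs work. The log2 ratio of Rap1b to Rap1a differed by -0.63 between Meth and Saline. In sorted bulk RNA, fewer cells with a transcript and less of it per cell cannot be told apart.

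Rap2a, a Rap2 protein that acts through the Ste20-like kinases, had an average of 5.44 in Meth and 6.79 in Saline. Its 2.54-fold lower value had a nominal p of 0.1188 by the authors' deposited table, and did not pass. Rap2b stood low on the panel, at 1.68 in Meth and 2.21 in Saline (1.44-fold lower, nominal p = 0.4219, by the authors' deposited table). Rap2c, the X-linked Rap2 gene, was at 6.27 in Meth and 6.47 in Saline (1.15-fold lower, nominal p = 0.1499, by the authors' deposited table). On the log2 scale Rap2a thus differed nearly as much as Rap1b (-1.35 and -1.57), and Rap2c differed least of the 5 GTPases (-0.20). The summed linear values of the 3 Rap2 genes were 121 in Meth and 201 in Saline, a ratio of 0.601. No test of the difference between the Rap1 and Rap2 genes was possible with 1 average per group.

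Of the exchange factors, Rapgef1, which is brought to membranes by Crk adaptors and acts on Rap1, had an average of 8.29 in Meth and 7.80 in Saline. Its 1.41-fold higher value had a nominal p of 0.0827 in the authors' deposited table. Rapgef2, a PDZ-domain exchange factor of Rap1 and Rap2, was at 6.20 in Meth and 5.93 in Saline (1.20-fold higher, nominal p = 0.5758, by the authors' deposited table). Its relative Rapgef6 was at 6.71 in Meth and 6.89 in Saline (1.14-fold lower, nominal p = 0.1921, by the authors' deposited table). None of the 3 passed the adjusted threshold, and none had a nominal p under 0.05.

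Of the activating proteins, Sipa1 (SPA-1), which in leukocytes limits Rap1-driven adhesion, had an average of 9.10 in Meth and 8.16 in Saline. The authors' deposited table listed it 1.92-fold higher, the same fold as Rap1a in the other direction, with a nominal p of 0.0854 and an FDR of 0.5679. On the linear scale Sipa1 stood at 548 in Meth and 285 in Saline. Rap1gap, the founding Rap activating protein, was at 0.25 in Meth and 0.29 in Saline (nominal p = 0.9748, by the authors' deposited table). At that level, few transcripts and a weak primer pair cannot be told apart.

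The ratio of regulator to GTPase can be compared between groups, since how well a primer pair works largely cancels between groups. The log2 ratio of Sipa1 to Rap1b was larger in Meth than in Saline by 2.51, that of Sipa1 to Rap1a by 1.88 and that of Sipa1 to Rap2a by 2.29. For Rapgef1 over Rap1b it was larger by 2.06. The pairs join the regulators with the largest higher values in Meth to the GTPases with the largest lower values, so large ratios follow from that choice. Of the 6 other activating proteins read below, 4 were lower in Meth and 2 higher. The ratios are differences between group averages with no spread behind them, and they were not tested.

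**Figure D2:**
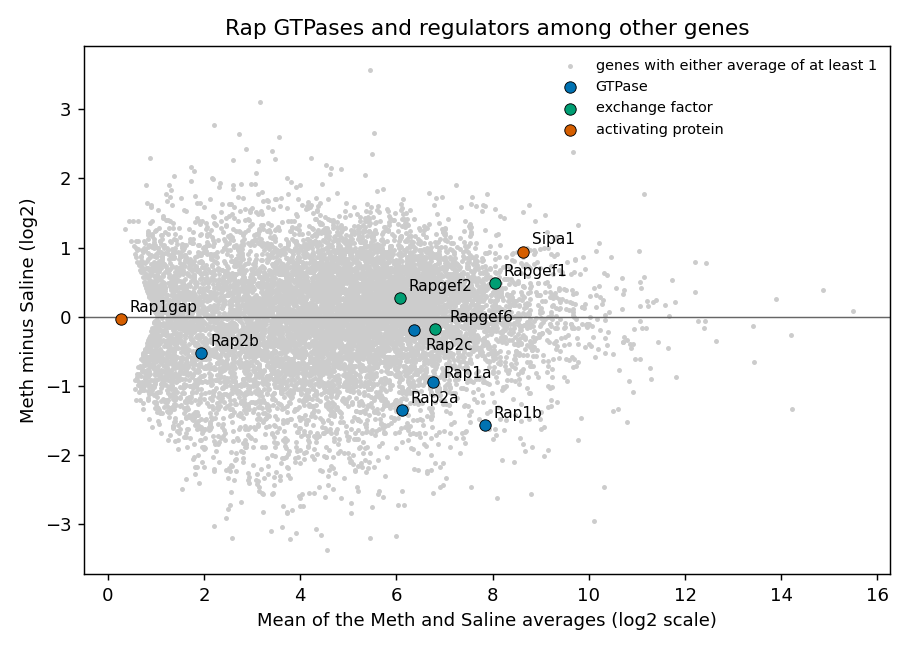
Meth minus Saline difference (log2, vertical axis) against the mean of both averages (log2 scale, horizontal axis). Grey points are the 10375 genes that reached 1 in either group, and coloured points are the 10 genes by role, Rap1gap lying below that level. Rap1b and Rap2a lie low in the cloud, with 3.88% and 5.70% of the genes below them, and Sipa1 lies high, with 92.0% below it.

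The differences of the 10 genes went with the GC content of their transcripts. Over 9965 genes that had a GENCODE transcript and reached 1 in either group, the deposited difference was larger at higher GC content of the longest transcript (Spearman's rho 0.21; this is across genes, and genes are no independent replicates). The median difference was -0.26 in the lowest of 20 GC bins and 0.22 in the highest. Rap1a (38.8% GC) and Rap1b (39.9%) lie in the lowest bins and Sipa1 (61.2%) and Rapgef1 (56.2%) near the other end. Across the 10 genes rho was 0.61, given as a description, since all come from the same libraries.

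Set against the median of genes in the same GC bin, Rap1b differed by -1.36, Rap2a by -1.32, Rap1a by -0.68 and Rap2b by -0.50. Sipa1 differed by 0.72, Rapgef1 by 0.28 and Rapgef2 by 0.23. The 0.20 by which Rap2c was lower became 0.06 higher, as genes of its GC content (36.5%) were lower by a median of 0.26. Rapgef6 differed by -0.06 and Rap1gap by -0.31. Rap1gap lay under 1 in both groups, whereas the GC bins hold only genes that reached 1. Set against genes of like level, Rap1gap differed by 0.09, so its direction depended on the genes compared. Against genes of like GC content, 4 of the 5 GTPases were therefore lower in Meth. The GC content used is that of the longest transcript, and that of the short stretch the panel reads is not known. The part of GC content in the differences was not tested further.

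**Figure D3:**
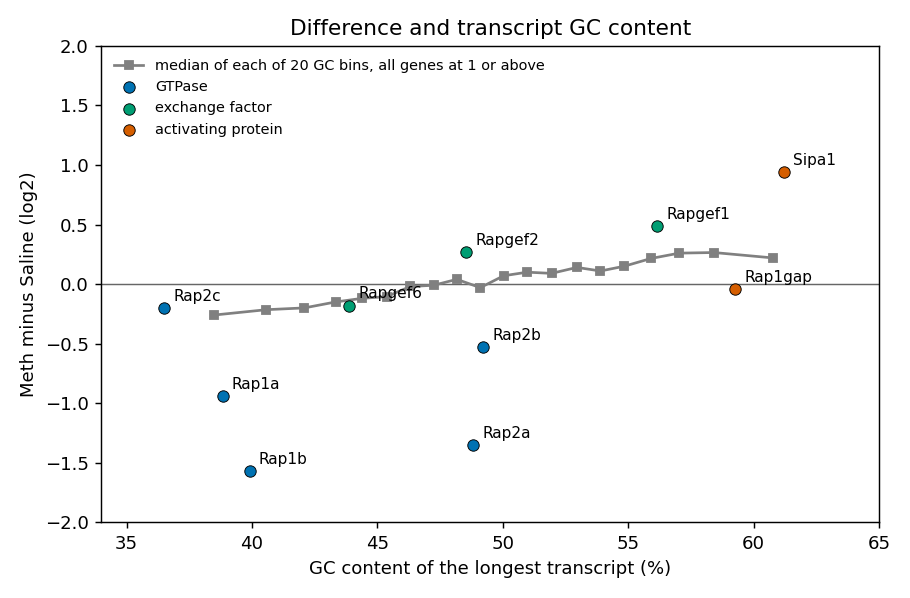
Meth minus Saline difference (log2, vertical axis) of the 10 genes against the GC content of the longest transcript (percent, horizontal axis), with the median of each of 20 GC bins over 9965 genes in grey. The grey line runs from -0.26 at the lowest GC content to 0.22 at the highest; Rap1a, Rap1b, Rap2a and Rap2b lie below it, and Sipa1 lies above it.

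Promoter sequence was looked at for letters shared by the genes that differed together. RefSeq promoter windows (GRCm38.p6, 250 bases before to 50 after a start) were found for 9 of the 10 genes, in 16 windows. The full cAMP response element (TGACGTCA, its own reverse complement) was in 1 of the 16 windows, that of Rap1b, beside 1.79% of all 32851 windows. It is shown in capitals in 30 bases of the minus strand at chr10:117845998-117846027, where it begins 42 bases before the RefSeq start. The GENCODE annotation has Rap1b begin further upstream, at 117846035, so by that annotation the element lies inside the gene.
Rap1b: ggctgaacgccTGACGTCAaggcgacaccg

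The half-site TGACG, on either strand and counted also inside the full element, was in 4 of the 16 windows, from Rap1b, Rap1gap and Rapgef6, and in 20.8% of all windows. An E-box (CACGTG, its own reverse complement) was in 2 of the 16 windows, which overlap and belong to Rap1gap, and in 7.15% of all windows. It is shown at chr4:137664693-137664722 on the plus strand.
Rap1gap: gcgctcggcggtCACGTGacgttccccctc

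A GC box (GGGCGG, either strand) was in 11 of the 16 windows, from 8 of the 9 genes, and in 35.7% of all windows. The gene without a window was Rap1a or Rapgef2, and neither had a match to any of these motifs. No motif other than the GC box was found in the windows of both Rap1b and Rap2a, the GTPases with the largest differences. Matches describe letters only and say nothing of factor binding.

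The wider pathway was read from 7 lists of 85 genes in all, of which 84 were in the table. A nominal p under 0.05 was listed for 11 of the 84, beside 10.1% of all genes, by the authors' deposited table. Lower in Meth were 7 of these (3.76% of all genes) and higher 4 (6.38%). With either average of at least 1 there were 5 of 62, beside 14.7% of genes at that level, 4 lower (8.19%) and 1 higher (6.46%). The single gene of these lists with an adjusted p under 0.05 was Mras, a Ras family GTPase. The median difference was 0.00 over the 84 genes, as over all genes.

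Of 6 other activating proteins, 4 were listed lower and 2 higher, with a median difference of -1.02, and 2 had a nominal p under 0.05 in the authors' deposited table. All 6 reached 1 in either group. Among all genes at that level, 48.8% were listed lower, and 8.19% were lower with a nominal p under 0.05. Sipa1l1, a relative of Sipa1, was at 3.55 in Meth and 4.82 in Saline (2.42-fold lower, nominal p = 0.0498, by the authors' deposited table). Rasa3, an activating protein for both Ras and Rap that restrains Rap1 in platelets, was at 4.07 in Meth and 5.40 in Saline (2.51-fold lower, nominal p = 0.0316, by the authors' deposited table). Rap1gap2, close kin of Rap1gap, was at 5.10 in Meth and 6.39 in Saline, and Sipa1l2 at 6.71 in Meth and 6.58 in Saline. Neither Rap1gap2 nor Sipa1l2 had a nominal p under 0.05, and no gene of this list passed the adjusted threshold.

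Of the 10 other exchange factors, 3 were lower, 6 higher and 1 equal, with a median difference of 0.13. At either average of at least 1 there were 4 genes, 2 lower and 2 higher, with a median of 0.16. Rapgef5 was at 8.68 in Meth and 8.76 in Saline, and Rasgrp3, an exchange factor of Ras and Rap that binds diacylglycerol, at 7.99 in Meth and 7.60 in Saline (nominal p of 0.8228 and 0.1429, by the authors' deposited table). Of the Epac genes, whose products load Rap in answer to cAMP, Rapgef3 was at 0.29 in Meth and 0.74 in Saline and Rapgef4 at 0.33 in Meth and 0.10 in Saline. Rapgef3 had the single nominal p under 0.05 of this list, 0.0268 in the authors' deposited table, at a level where few reads stand behind a value. Dock4, a Dock-family exchange factor also tied to Rap1, had the largest difference of the list (3.74 in Meth and 6.07 in Saline, nominal p = 0.0844, by the authors' deposited table). Rapgef3, Rapgef4 and Dock4 were named after their values were seen.

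Downstream, none of the 15 Rap1 effectors and binders with either average of at least 1 had a nominal p under 0.05, with 9 lower and 6 higher. Apbb1ip (RIAM), which links Rap1 to talin, was at 9.27 in Meth and 9.58 in Saline, and Rassf5 (RAPL), a Rap1 binder that acts on the integrin LFA-1 in lymphocytes, at 8.45 in Meth and 8.14 in Saline (nominal p of 0.3248 and 0.0914, by the authors' deposited table). Of the 6 genes at that level among Rap2 kinases, Rassf, Rundc3 and Rasgef1 genes, 3 were lower and 3 higher, and none had a nominal p under 0.05. The kinase genes Mink1 (6.50 in Meth and 4.68 in Saline) and Map4k4 (6.76 in Meth and 5.93 in Saline) were among the higher. Their nominal p was 0.0942 and 0.2627 by the authors' deposited table, and they were named after their values were seen. The 3 lower were Rassf and Rasgef1 genes. Rassf2 was at 9.07 in Meth and 9.0 in Saline, and Rasgef1b at 5.81 in Meth and 6.03 in Saline. Across the whole lists, Radil (0.28 in Meth and -0.10 in Saline) and Tnik (0.55 in Meth and 0.10 in Saline) had a nominal p of 0.0026 and 0.0064 in the authors' deposited table, both near 0 and named after their values were seen.

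Upstream adaptors were listed lower for 9 of 12 genes and higher for 2, with a median difference of -0.21 and none with a nominal p under 0.05 by the authors' deposited table. At either average of at least 1, 7 of 9 were lower and 2 higher, with a median of -0.57. Over all genes 30.4% were listed lower, and 48.8% of those at that level. The ubiquitin ligase and adaptor Cbl was at 7.82 in Meth and 8.02 in Saline. Skap2, an adaptor of macrophage integrin signalling, was at 5.93 in Meth and 7.78 in Saline (3.60-fold lower, nominal p = 0.1239, by the authors' deposited table). Crk and Crkl, the adaptors that carry Rapgef1, went in opposite directions, with Crk at 7.90 in Meth and 7.37 in Saline and Crkl at 3.57 in Meth and 4.96 in Saline. The Crk genes were named after their values were seen, and neither had a nominal p under 0.05.

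At the integrin end, 9 of 12 genes were listed higher and 3 lower, with a median difference of 0.21. At either average of at least 1, 7 of 10 were higher and 3 lower, with a median of 0.16, beside 36.7% of all genes higher and 50.7% of those at that level. Itgb1, the common beta subunit of fibronectin and laminin receptors, was at 6.62 in Meth and 8.28 in Saline (3.15-fold lower, nominal p = 0.0304, FDR = 0.4127, by the authors' deposited table). The leukocyte beta subunit Itgb2 was at 9.92 in Meth and 9.78 in Saline (nominal p = 0.2774, by the authors' deposited table). Its partner Itgam, the CD11b of the gate, was 1.13-fold higher with a nominal p of 0.3903 in the authors' deposited table. Whether the beta subunits differed from each other could not be tested.

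Among 17 other Ras family GTPases, 10 were listed lower, 6 higher and 1 equal, and of the 12 with either average of at least 1, 6 were lower and 6 higher. Mras, a Ras relative that binds the phosphatase scaffold Shoc2, was at 6.15 in Meth and 5.51 in Saline (1.56-fold higher, nominal p = 0.0006, FDR = 0.0292, by the authors' deposited table). In the Benjamini-Hochberg adjustment over the same 10375 genes as for Rap1a, Mras had an adjusted p of 0.239 and did not pass either. Ralb was at 8.52 in Meth and 8.27 in Saline. Rasd1, a GTPase gene induced by glucocorticoids, was at 0.13 in Meth and 1.12 in Saline (nominal p = 0.0391, by the authors' deposited table). Since the 5 Rap genes were picked with their values known, their direction beside that of these 17 is a description, and the difference was not tested.

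**Figure D4:**
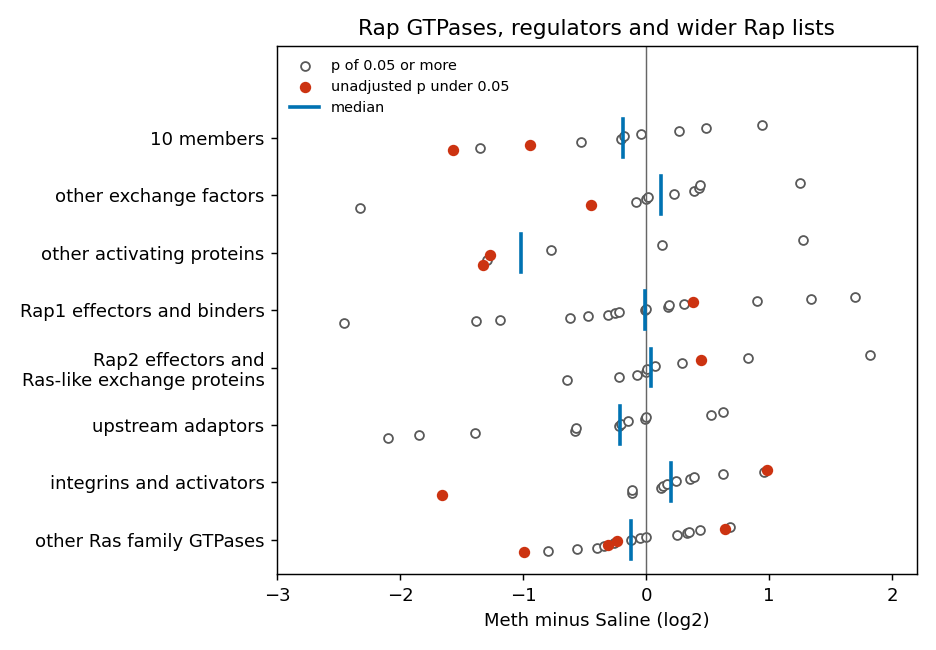
Meth minus Saline differences (log2, horizontal axis) of the 10 genes and of 7 wider lists, each point a gene, filled where the deposited nominal p was under 0.05, with the list's median as a blue bar. Vertical spread within a list only separates points. Medians run from -1.02 for the other activating proteins to 0.21 for integrins and activators.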

How the data were processed

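Sorted microglia of 3 Meth and 3 Saline mice were read with an AmpliSeq mouse transcriptome panel on an Ion S5XL sequencer, per the labels' protocols. The sources used here do not name an aligner, a genome build, a counting step, a normalization or a statistical model. A single file was used, the authors' deposited comparison. By the file headers, every gene has an authors' average in each group (log2), a fold, a p-value and an FDR adjusted p-value. The deposited fold, a signed ratio treated as a score, is negative where Saline is higher, and its size is within 0.0166 (log2) of the difference of the averages. Linear values are 2 to the power of the average, minus 1. They sum to 981392 in Meth and 1012049 in Saline, so they are read as RPM. Some averages lie below 0, such as -0.10 for Radil and -0.24 for Fermt2, both in Saline. A log2 of RPM plus 1 cannot be negative, so the scale is inferred from the sums and is uncertain near 0. Depth is unknown, so no interval can be given. The table has 0 columns per sample.

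Genes were called at a deposited adjusted p under 0.05; no model was fitted here. Benjamini-Hochberg adjustment, checked on simulated p-values, was repeated over genes with either average of at least 1 or 3, or above 0. Over all genes, the largest gap to the deposited FDR was 0.00232. Transcript GC content was matched by symbol for 21366 genes (89.3%). Copies were sought with BLAST 2.17.0. Python 3.11.15, numpy 2.4.6 and pandas 2.3.3 were used. Members and lists were chosen with earlier results of these data known. Named from the wider lists were genes with an unadjusted p under 0.05 and either average of at least 1, and the 2 highest in Saline per list; exceptions are stated. 1 gene that this rule takes is not reported here.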

Additional observations from a re-analysis of the deposited data

How the results depend on the processing

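No paired analysis was possible because the table holds 1 average per group, and leaving out a replicate could not be run for the same reason. Adjusted over genes with either average of at least 1 or at least 3, 0 of the 10 genes were called in place of 1 by the deposited FDR, as Rap1a kept its difference of -0.94 with an adjusted p of 0.189 and 0.183. An unadjusted p under 0.05 was listed for 2 of the 10 (Rap1a and Rap1b, both lower in Meth), beside 10.1% of all genes in either direction and 3.76% lower, and 14.7% and 8.19% of genes at 1 or above; nothing is read from it. The count was 1 with genes above 0, with a fold of at least 1.5 added, and at an adjusted p under 0.1. Centring on genes of like level put Rap1gap at 0.09 in place of -0.04, and centring on genes of like GC content, chosen after seeing the data, put Rap2c at 0.06 in place of -0.20. The other genes kept their direction under both, with the median of all genes at 1 or above taken off, and as ratios of linear values. The mean of the 10 differences was -0.31, against a median of -0.19. Without Rap1a, the log2 ratio of the summed Rap1 values was -1.58 in place of -1.38. The log2 ratio of Sipa1 to Rap1b was larger in Meth than in Saline by 2.08 after GC centring, in place of 2.51. Of the wider lists, 5 genes at 1 or above had an unadjusted p under 0.05, in place of 11.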
